A study of Mus musculus with 12 samples.

Results

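CD8-positive immature single-positive (ISP) thymocytes were compared with the CD25-positive cells that precede them, in thymi of mouse embryos that lack Rag1. Members were the 8 libraries titled CD25 or ISP, of 12 in the series. 4 libraries were CD25 and 4 were ISP, and each population held 2 control and 2 KO libraries. Bulk RNA was sequenced from sorted cells of C57BL/6 embryos, labelled E16.5 in the sample fields and E17.5 in the treatment protocol. Every embryo in both arms lacked Rag1 and carried 2 loxP-flanked Bcl6 alleles (Rag1KO, Bcl6fl/fl). Control embryos were LckCre- and KO embryos LckCre+. LckCre expresses the Cre recombinase from a T lineage promoter, so an effect of Cre and an effect of Bcl6 loss cannot be told apart. CD25 cells were sorted from unstimulated thymi, and ISP cells (CD4-CD8+) from thymi held for 2 days on filters with anti-CD3 at 1 µg/ml. Stage, the antibody and the days in culture therefore cannot be told apart in any ISP minus CD25 difference given here. Whether paired libraries within a group derive from different embryos or cultures is not in the labels, so p-values measure only the spread between these libraries, which may be technical. The 2 ISP control libraries differed in sex-linked genes, given near the end, so those 2 did not hold the same mix of sexes.

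Thymocytes without RAG proteins cannot assemble a T cell receptor beta chain and stop at the CD25-positive, CD4-negative and CD8-negative stage. In a normal thymus the new beta chain pairs with pre-T alpha (Ptcra) and the CD3 subunits, and the pre-TCR signal through Lck and Zap70 starts beta-selection: cells divide, become less dependent on Notch, turn CD25 off and express CD8, then CD4. An antibody to CD3 gives Rag-deficient cells a signal in place of the pre-TCR, and ISP cells are the first CD8-positive stage on that path.

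Recovered reads ran from 10532010 to 14228674 per library. Between 10339 and 10568 genes reached 1 RPKM, a read level normalised for gene length and library size. A single read in a kilobase of gene corresponded to between 0.0697 and 0.0918 RPKM. Titles and sequencing library names conflict, in population or genotype, for 6 of the 8 libraries from anti-CD3 cultures. Among the 4 titled ISP, 2 have DP in the library name (control 1 and KO 1), and both KO libraries have a wild-type name. Library KO 2 of ISP also carries a stage label for DP cells. Titles were used here. Cd4, which the sort used, read 17.4, 18.8, 13.9 and 20.5 RPKM in ISP control 1, control 2, KO 1 and KO 2, and between 191 and 344 RPKM in the 4 libraries titled DP, so all 4 libraries titled ISP lay below every library titled DP. The 4 libraries named ISP include 2 titled DP, which lay in that higher range of Cd4, so that grouping mixes both Cd4 levels. With these 4 in place of those titled ISP, the calls of 27 named genes were lost, and the differences of 5 others changed sign. Among the lost calls were those of Asns, Shmt2, Cdc6, Mcm5, Rag2, Dntt, Il2rb, S1pr1, Ifng, Ccl5 and Ncr1. Counts given below as by library name are from that grouping, and are printed where they differ from the count by title by over 1.5 times. The first principal component of the 8 libraries held 81.9% of the variance and separated the populations, with CD25 libraries between -35.4 and -32.5 and ISP libraries between 32.3 and 36.6. The second held 5.00% and separated ISP control (-12.9 and -9.13) from ISP KO (9.36 and 13.9).

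Bcl6, the targeted gene, encodes a transcriptional repressor (GRCm38 16:23965052-23988852, minus strand). In every list of 4 values below, the order is control 1, control 2, KO 1, KO 2. Bcl6 read 1.82, 1.49, 2.01 and 1.63 RPKM in CD25 and 11.9, 11.6, 18.9 and 25.1 RPKM in ISP. All ISP libraries lay above all CD25 libraries, and ISP KO lay above ISP control. The difference on log2(RPKM + 1) was 2.64 ± 0.15 (SE) over the 8 libraries (limma, adjusted p = 1.1e-07) and 2.26 in the control libraries (adjusted p = 1.1e-06). These are reads of the whole gene and do not measure the deleted exons, so they do not check the KO label. The same holds for Rag1, which read 55.3, 52.6, 51.8 and 51.3 RPKM in CD25 and 39.9, 32.04, 37.4 and 39.4 RPKM in ISP.

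The sort genes describe the gates and are not results. Cd8a read 2.16, 1.76, 1.29 and 1.64 RPKM in CD25 and 302, 269, 232 and 230.4 RPKM in ISP, and Cd8b1 18.9, 16.7, 14.6 and 18.5 and 703, 715, 554 and 520.1 RPKM. Cd4 read 1.53, 1.03, 1.16 and 1.78 RPKM in CD25, below its ISP values above. Il2ra, which encodes CD25, read 538, 538, 603 and 564 RPKM in CD25 and 29.9, 24.2, 43.3 and 44.7 RPKM in ISP. All 4 genes had no overlap between the populations, and Il2ra RNA was still well above the value of 1 read in every ISP library.

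Of 11028 genes tested, 7031 (63.8%) passed the test (limma on log2(RPKM + 1) with genotype as covariate, Benjamini-Hochberg adjusted p under 0.05). In ISP 3620 (32.8%) were higher and 3411 (30.9%) lower. These shares are the background for counts of list members over the 8 libraries, and the control shares given next for counts in the control libraries. The grouping by library name called fewer genes of all kinds, 4349 of 11141 tested (39%). Of these 2142 were higher and 2207 lower, which is the background for counts by library name. In 430 genes (3.9%) the rise was at least 1 on the log2 scale, and in 588 (5.33%) the fall was. Libraries of the populations did not overlap, with ISP above, in 3195 genes (29%), and with ISP below in 3086 (28%). Between the control libraries 2943 genes were higher (26.7%) and 2692 lower (24.4%), as a contrast of a fit of 4 groups whose estimate of the spread also uses the KO libraries, and this is the contrast meant by control libraries below. A fit of the 4 control libraries by themselves called 2672 higher and 2454 lower. Of the 7031 genes, 5407 were also called in the control libraries in the same direction and 0 in the opposite one (limma). The median difference of all tested genes was 0.0038. The deposited values had been scaled to a common median ratio between libraries, which sets this median near 0. Every difference given here is relative to that scale, and a change in total RNA per cell cannot be seen.

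**Figure D1:**
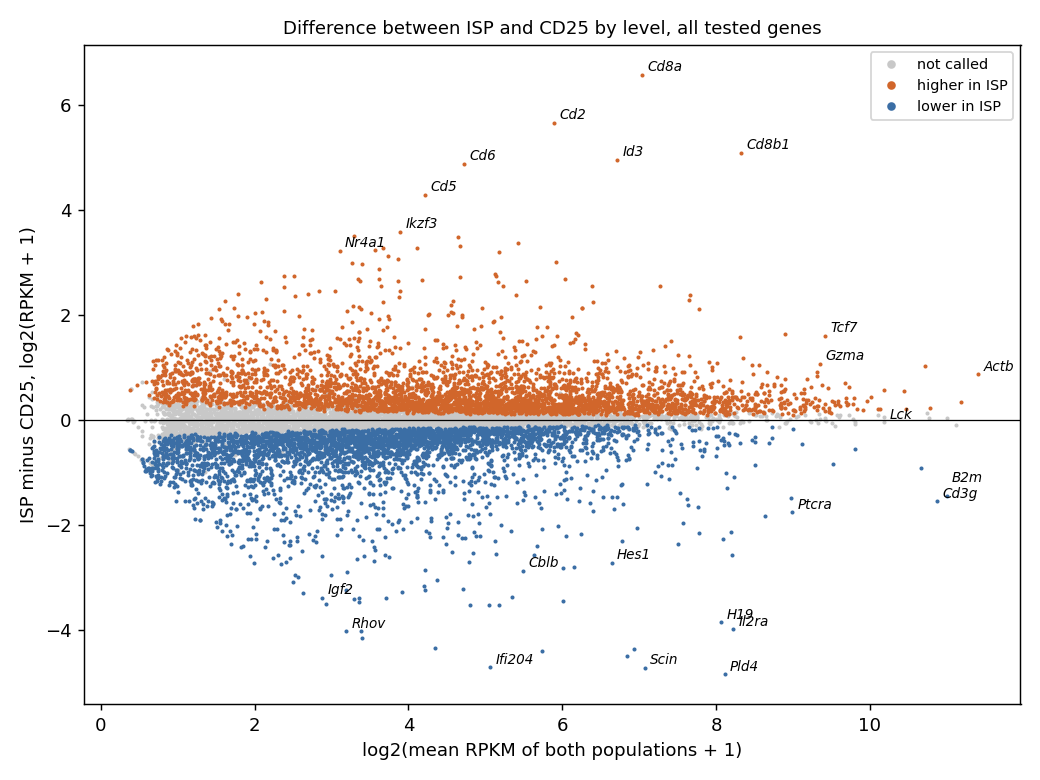
Difference between ISP and CD25 libraries on log2(RPKM + 1), against the log2 of the mean RPKM of both populations plus 1, for each of 11028 tested genes. Orange points are the 3620 genes called higher in ISP, blue points the 3411 called lower and grey points the rest. The T cell surface genes Cd8a, Cd2 and Cd6 lie at the top, Pld4, Scin and Ifi204 at the bottom, and the abundant genes B2m and Cd3g fell while Actb rose.

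Genes for T cell surface molecules were higher in ISP. Apart from Cd4, Cd8a and Cd8b1, 25 of 40 tested members of the surface list were higher and 8 were lower (24 and 7 in the control libraries). With those 3 genes counted, 28 were higher, and 18 by library name. Cd2, an adhesion receptor that binds CD48 (GRCm38 3:101275899-101287939, minus strand), read 1.400, 1.73, 1.12 and 0.9751 RPKM in CD25 and 129, 121, 107 and 105 RPKM in ISP. The ISP mean was 88.5 times the CD25 mean, with no overlap (5.67 ± 0.064 on the log2 scale, limma, adjusted p = 7.6e-13; control libraries 5.62). Cd5, a restraining receptor whose level follows the strength of TCR signals, went from 1.11, 0.623, 0.887 and 0.575 to 30.8, 29.96, 31.6 and 45.7 RPKM, and the highest ISP value was in KO 2. Its relative Cd6 went from 0.758, 0.595, 0.968 and 0.662 to 50.2, 52.2, 44.8 and 54.1 RPKM, so that all CD25 libraries were under 1 RPKM and no ISP library was under 44. Cd6 therefore passed the filter only through ISP, which fixes the direction of its difference. Both genes lie close together on chromosome 19 (Cd5 at 10717116-10739002 and Cd6 at 10789341-10830058, GRCm38). The costimulatory receptor gene Cd28 rose from 10.02 ± 0.657 to 63.3 ± 2.97 RPKM (mean ± SD, n = 4 each) and Cd52 from 66.5 ± 2.17 to 331 ± 59.9. Thy1 rose from 101 ± 8.101 to 193 ± 5.805 RPKM, Cd27 from 107 ± 2.13 to 184 ± 11.2 and Icos from 2.81 ± 0.144 to 8.36 ± 1.39. Among the 8 members that fell were Ctla4 (108 ± 6.07 to 22.9 ± 4.95 RPKM), an inhibitory relative of CD28, Ly6a (180.5 ± 38.9 to 36.6 ± 12.6), the tetraspanin gene Cd82 (476 ± 29.6 to 108 ± 11.8) and Cd24a (268 ± 19.4 to 197 ± 8.68). Cd44, an early thymocyte marker, did not pass the test (1.804 ± 0.289 and 1.87 ± 0.471 RPKM).

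Most transcripts of the pre-TCR complex fell and stayed abundant. Of 5 tested members, 4 were lower and 1 was higher. Ptcra read 778, 850.4, 730.2 and 761 RPKM in CD25 and 268, 211, 235 and 211 RPKM in ISP, with no overlap (-1.75 ± 0.072, limma, adjusted p = 8.4e-09; control libraries -1.77). Cd3g, second most abundant of all genes in CD25, read 2742, 2722, 2839.5 and 2824 and then 948, 947, 967 and 953 RPKM. The SD of its 4 ISP values was 9.34 RPKM. Cd3e fell from 940.0 ± 52.8 to 529 ± 57.9 RPKM and Cd3d from 638 ± 16.9 to 468 ± 18.9. Cd247, the zeta chain that carries most of the signalling motifs, went the other way, from 46.9 ± 2.11 to 62.8 ± 3.31 RPKM.

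Of 29 tested genes of proximal TCR signalling, 18 were higher and 6 lower (16 and 5 in the control libraries; 3 lower by library name). Zap70, the kinase that binds phosphorylated CD3 and zeta chains, read 5.81, 5.82, 5.97 and 5.002 RPKM in CD25 and 42.4, 37, 42.99 and 51.1 RPKM in ISP (7.68-fold in the means, 2.73 ± 0.091, limma, adjusted p = 1.8e-09; control libraries 2.57). Its relative Syk, used alongside it in early thymocytes, went from 17.3, 17.7, 18.7 and 18.3 to 5.85, 3.85, 5.55 and 6.75 RPKM. Neither gene overlapped between the populations. Per length, Zap70 lay below Syk in every CD25 library and above it in every ISP library. The adaptor Sla rose from 23.3 ± 2.34 to 142 ± 5.21 RPKM and the Ras activator Rasgrp1 from 13.8 ± 2.07 to 53.6 ± 1.85. Cblb, a ubiquitin ligase that restrains TCR signals, fell from 79.5, 75.9, 76.3 and 79.7 to 9.35, 7.65, 10.3 and 12.3 RPKM. Lck itself did not pass the test, at 1182 ± 78.9 and 1145 ± 28.8 RPKM, and its 95% interval of the difference ran from -0.16 to 0.075 on the log2 scale. Lat rose from 499 ± 75.9 to 646 ± 31.8 RPKM.

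Genes that a receptor signal induces were mixed. Of 27 tested, 15 were higher (14 in the control libraries) and 5 lower (4). By library name, and with the 2 libraries both titled and named ISP, 3 were lower. Id3, an inhibitor of E proteins, read 5.26, 4.42, 7.89 and 5.07 RPKM in CD25 and 197, 215, 207 and 191 RPKM in ISP, with no overlap (4.96 ± 0.12, limma, adjusted p = 2.3e-10; control libraries 5.15). Nr4a1, a receptor-induced orphan nuclear receptor, went from 0.422, 0.382, 1.07 and 0.3004 to 10.5, 8.900, 10.99 and 28.2 RPKM, highest in ISP KO 2. Egr1, the early growth response factor upstream of Id3, went from 2.72, 2.97, 8.39 and 0.678 to 21.7, 24, 23.1 and 24.8 RPKM. The CD25 values of Egr1 differed more than 10-fold among themselves, yet every one lay below every ISP value. Nab2, a corepressor of EGR factors, rose from 0.166 ± 0.05604 to 6.298 ± 1.26 RPKM. It was under 1 RPKM in every CD25 library and passed the filter only through ISP, which fixes the direction of its difference. Egr2, another EGR factor, did not reach the level for testing and read 0.164, 0.08701, 0.217 and 0 RPKM in CD25 and 0.718, 0.694, 0.925 and 3.32 RPKM in ISP. Fos rose from 4.597 ± 1.86 to 19.96 ± 1.32 RPKM, Junb from 13.8 ± 3.78 to 37.3 ± 1.83 and Cd69 from 3.96 ± 2.23 to 11.9 ± 1.74. Jun fell from 20.8 ± 3.24 to 10 ± 1.35 RPKM and the phosphatase gene Dusp2 from 79.5 ± 10.1 to 61.6 ± 5.33. Dusp6, which damps ERK, did not pass the test (5.69 ± 2.04 and 5.83 ± 0.695 RPKM).

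In the NF-kappaB list 5 of 13 tested members were higher and 2 lower. Nfkbia, the inhibitor that NF-kappaB itself induces, rose from 28.1, 28.05, 27.3 and 26.2 to 128, 129, 124 and 115 RPKM. Nfkb2, the p100 subunit gene, fell from 43.8, 47.99, 33.4 and 34.9 to 6.29, 6.303, 8.94 and 10.7 RPKM, and its 2 ISP KO values lay above its 2 ISP control values. Nfkb1 did not pass the test (23.7 ± 2.01 and 22.7 ± 6.02 RPKM).

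**Figure D2:**
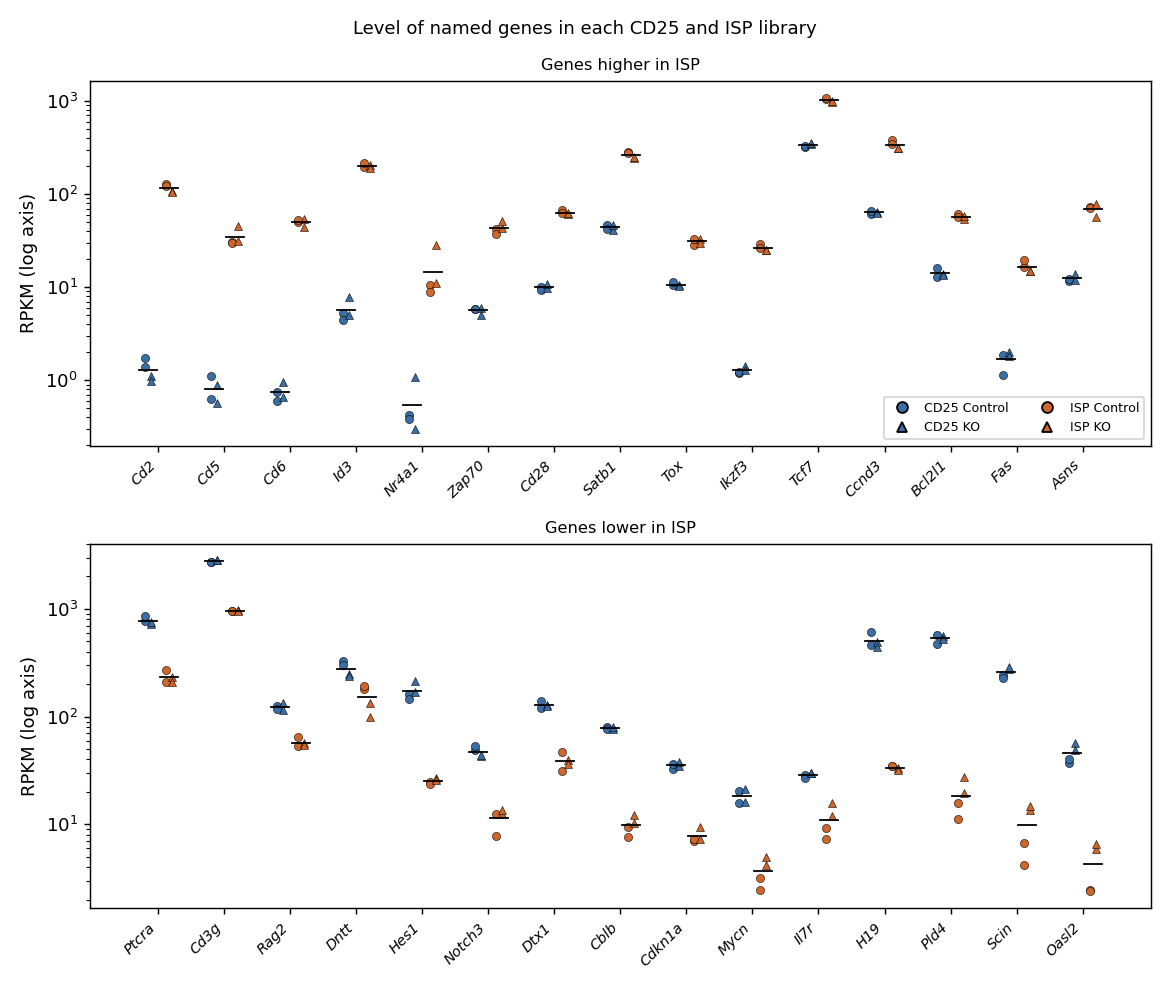
RPKM on a log axis of 30 named genes in each CD25 library (blue) and ISP library (orange), with circles for control, triangles for KO and lines at the mean of 4 libraries. The upper panel holds genes called higher in ISP, from Cd2 to Asns, and the lower panel genes called lower, from Ptcra to Oasl2. In all 30 genes the libraries of the populations did not overlap. In many genes of the lower panel both ISP KO libraries lay above both ISP control libraries. Among them were Cd3g, Hes1, Notch3, Cblb, Cdkn1a, Mycn, Il7r, Pld4, Scin and Oasl2. In Dntt and H19 both lay below.

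Genes of the Notch pathway were mostly lower. Notch receptors drive T lineage entry and sustain cells up to beta-selection. Of 17 tested members of the pathway list, 9 were lower and 2 were higher (9 and 1 in the control libraries). Hes1, the repressor that Notch induces (GRCm38 16:30064384-30067796, plus strand), read 163, 146, 212 and 169.7 RPKM in CD25 and 24.9, 23.5, 27.1 and 25.6 RPKM in ISP (-2.71 ± 0.073, limma, adjusted p = 4.9e-10; control libraries -2.62). The receptor gene Notch3 fell from 48.7, 53, 43.4 and 43.6 to 12.4, 7.73, 12.6 and 13.5 RPKM and Notch1 from 106 ± 12.2 to 51.03 ± 5.51. Deltex1 (Dtx1) fell from 129 ± 8.32 to 38.4 ± 6.71 RPKM and the feedback inhibitor Nrarp from 24.3 ± 2.05 to 8.21 ± 0.766. Rbpj, the DNA-binding partner of Notch, did not pass the test (7.33 ± 0.921 and 6.197 ± 0.396 RPKM), and the 2 members that rose were the glycosyltransferase Rfng and the coactivator Maml1, whose call was lost without CD25 KO 1, CD25 KO 2 or ISP KO 2.

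Genes of early progenitors followed the same direction: 9 of 13 tested were lower and 2 were higher, in the control libraries too. Mycn fell from 20.5, 15.7, 21.5 and 16.3 to 3.14, 2.44, 4.93 and 4.17 RPKM. The ETS factor Erg fell from 3.65 ± 0.655 to 0.193 ± 0.0734 RPKM, Gfi1b from 5.44 ± 1.05 to 0.997 ± 0.342, Nfe2 from 11.8 ± 1.45 to 4.53 ± 1.85 and the stem cell factor receptor Kit from 11.3 ± 0.272 to 4.27 ± 0.795. Erg was under 1 RPKM in every ISP library and passed the filter only through CD25, which fixes the direction of its difference. Zfpm1, a GATA cofactor, rose against the rest of this list, from 6.62 ± 0.963 to 18.3 ± 3.06 RPKM. Spi1 (PU.1), which early T cells silence, was already low and fell from 4.46 ± 0.995 to 2.94 ± 0.956 RPKM.

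Of 28 T lineage transcription factor genes tested, 19 were higher and 4 lower (17 and 5 in the control libraries; 2 lower by library name). Ikzf3, an Ikaros family member, read 1.19, 1.24, 1.41 and 1.31 RPKM in CD25 and 29.1, 26.4, 24.9 and 25.2 RPKM in ISP (3.58 ± 0.078, limma, adjusted p = 1.2e-10; control libraries 3.70). The chromatin organiser Satb1 rose from 44.2 ± 2.57 to 264 ± 17.9 RPKM and Tcf7, which encodes TCF-1, from 338 ± 14.7 to 1028 ± 54.96. Tox rose from 10.7 ± 0.407 to 31.05 ± 2.304 RPKM, Gata3 from 36.2 ± 5.09 to 66.2 ± 9.82, Ets1 from 128 ± 7.15 to 219 ± 12.3 and Ikzf1 from 25.6 ± 1.29 to 61.5 ± 6.45. Those that fell were Runx1 (65.7 ± 3.796 to 22.4 ± 1.93 RPKM), Ikzf4 (6.39 ± 0.742 to 1.12 ± 0.137), Myb (188 ± 11.3 to 126 ± 1.53) and Patz1 (51.9 ± 1.68 to 38.04 ± 0.999). Bcl11b, the T lineage commitment factor, lay at the threshold, with means of 92.5 ± 6.14 and 104 ± 10.8 RPKM and a limma adjusted p of 0.051 over the 8 libraries and 0.047 in the control libraries. Its call in the control libraries was lost in the fit of those 4 by themselves (limma, adjusted p = 0.053), without CD25 control 1 (0.28) and without ISP control 1 (0.26), and over the 8 libraries it passed by voom (0.024) and without CD25 control 2 (0.044), CD25 KO 1 (0.041) or ISP KO 2 (0.014). Lef1 did not pass the test (322 ± 29.8 and 311 ± 20.1 RPKM). The E protein genes split: Tcf3 rose from 53.1 ± 2.58 to 60.9 ± 3.26 RPKM and Tcf12 fell from 116 ± 3.79 to 80.2 ± 3.78.

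Of 6 tested BCL6 partners and relatives, 4 were higher and 0 lower by limma (3 and 0 in the control libraries; 2 and 0 by library name), with 0 lower at an unadjusted p under 0.05 and 0 by voom. Bcl6, Bcor and Irf8 were among the 4. Bcor, a corepressor that BCL6 binds, rose from 5.84 ± 0.461 to 10.05 ± 0.858 RPKM, and Ncor1 did not pass (34.3 ± 1.86 and 36.9 ± 3.93 RPKM).

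Genes of V(D)J recombination moved both ways: 8 of 16 tested fell and 5 rose, while by library name 4 fell and 6 rose. Leaving out any 1 control library left 3 that rose. Rag2, the gene of the partner of RAG1, read 126, 119, 114 and 134 RPKM in CD25 and 64.7, 53.9, 56.7 and 54.4 RPKM in ISP. Dntt, which adds untemplated bases at joints, went from 327, 300.4, 251 and 239 to 180.0, 194, 133 and 98.9 RPKM, lower in KO than in control within each population. DNA polymerase lambda (Poll) fell from 10.7 ± 1.298 to 2.35 ± 0.362 RPKM. Hmgb2, a bender of DNA that aids RAG cleavage and is also high in dividing cells, rose from 281 ± 15.03 to 528 ± 17.6 RPKM.

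Cell cycle genes were higher, by modest amounts. Of 47 tested genes of DNA replication, 43 were higher and 0 lower, with 43 and 0 in the control libraries. Of 37 mitosis genes, 36 were higher and 0 lower, again with 36 and 0 in the control libraries. By limma no member of either list was lower at an unadjusted p under 0.05 (0 and 0), and voom gave 0 and 0; without ISP control 1, limma called 1 replication gene, Uhrf1, lower. Grouped by library name, where 2 libraries titled DP stand in for 2 titled ISP, 10 replication genes and 34 mitosis genes were higher. The median differences were 0.60 and 0.80 on the log2 scale, so most members rose by less than 2-fold. Rrm2, the ribonucleotide reductase subunit that limits nucleotide supply, had the largest rise of the replication list, from 213, 244, 234 and 231 to 764, 763, 687 and 657 RPKM (1.63 ± 0.057, limma, adjusted p = 2.7e-09). Cdc45 of the replicative helicase rose from 41.95 ± 1.58 to 91.05 ± 6.32 RPKM and the sliding clamp Pcna from 244 ± 11.9 to 509 ± 15.2. The 4 members that did not pass were Uhrf1, Prim2, Pold1 and Pola1, the last at 25.4 ± 0.959 and 25.2 ± 2.16 RPKM. Among mitosis genes Birc5 (survivin) rose most, from 67.9, 73.7, 65.9 and 62.2 to 161, 158, 150.5 and 147 RPKM, and Mki67 rose from 36.3 ± 5.79 to 75.9 ± 3.75. Cenpf was the one member that did not pass (11.1 ± 2.46 and 12.97 ± 1.47 RPKM).

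**Figure D3:**
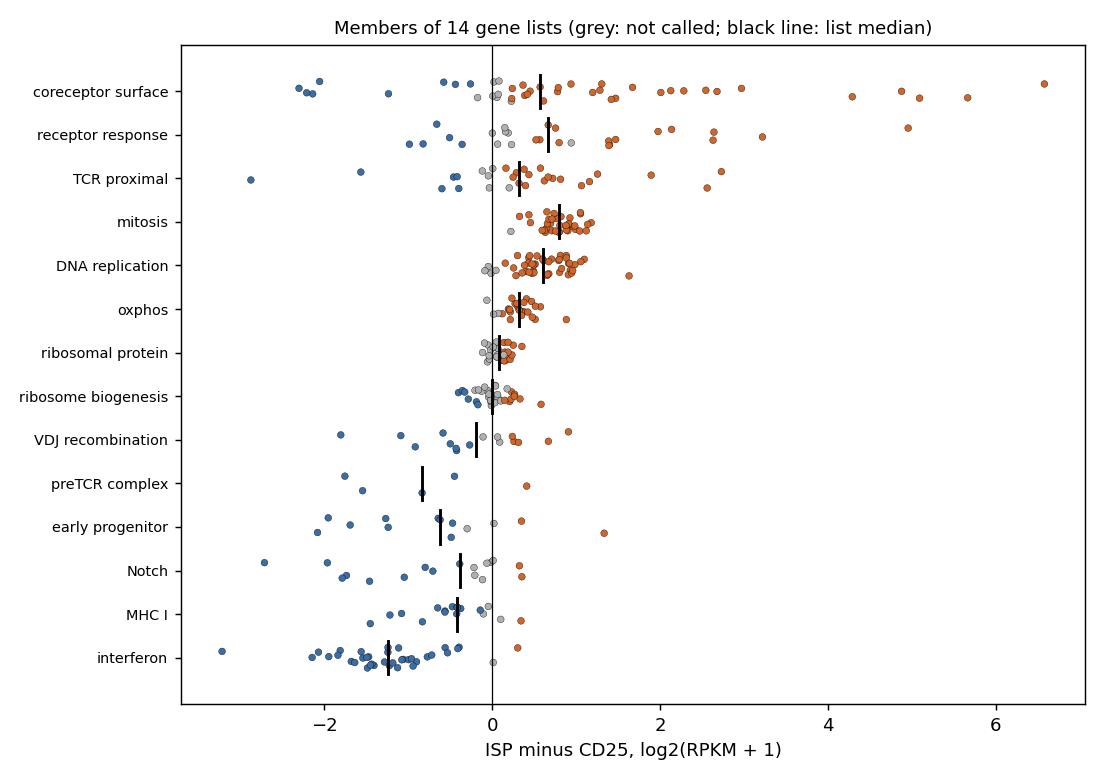
Difference between ISP and CD25 libraries on log2(RPKM + 1) for each tested member of 14 gene lists, 1 point a gene with random vertical spread, orange where called higher, blue where called lower and grey where not called. Black lines are list medians. Mitosis genes form a narrow group to the right with a median of 0.80, interferon genes spread to the left with a median of -1.24, and ribosome biogenesis lies at 0.

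Cyclin, inhibitor and E2F genes moved both ways. Of 28 tested, 20 were higher and 5 lower. Ccnd3, the D cyclin that beta-selection needs, read 60.96, 66.1, 64.5 and 62.7 RPKM in CD25 and 383, 345, 310.0 and 314 RPKM in ISP (2.39 ± 0.057, limma, adjusted p = 2.3e-10; control libraries 2.5). Ccnd2 fell from 50.9, 60.04, 65.5 and 64.4 to 24.03, 30.9, 36.05 and 40.8 RPKM, and the kinase that D cyclins bind, Cdk6, from 45.5 ± 5.43 to 12.5 ± 1.203. Ccne1 rose from 16.4 ± 1.05 to 54.5 ± 1.68 RPKM, Cdk2 from 59.05 ± 3.08 to 126 ± 6.41 and E2f2 from 25.2 ± 1.75 to 79.03 ± 3.51. Among the inhibitors, Cdkn1a (p21) fell from 32.6, 36.7, 35.1 and 37.6 to 7.07, 7.28, 7.37 and 9.45 RPKM, while Cdkn1c (p57) rose from 2.601 ± 0.265 to 20.5 ± 4.72, Cdkn2c (p18) from 4.54 ± 0.809 to 20.2 ± 4.09 and Cdkn2d (p19) from 53.7 ± 2.68 to 119 ± 10.7. Rb1 rose from 10.6 ± 1.05 to 21.1 ± 2.88 RPKM.

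Promoter sequences of these genes held motifs that cell cycle factors are known to read. RefSeq windows (GRCm38.p6) run from 250 bases before to 50 after the start, and 39 of the 47 replication genes and 30 of the 37 mitosis genes had one. The E2F motif was searched as TTTCCCGC or TTTGGCGC on both strands, whose matches overlapped in 0 windows. It was in 30.8% of the 39 replication genes, in 0% of the 30 mitosis genes, and in 3.83% of the 8353 tested genes with a window. The CHR motif of mitotic promoters, searched as TTTGAA on both strands, was in 66.7% of the mitosis genes, 17.9% of the replication genes and 14% of the tested genes. CCAAT, on both strands, was in 76.7% of the mitosis genes, 61.5% of the replication genes and 43.5% of the tested genes. It was also in 66.7% of 21 DNA repair genes and 66.7% of 15 MHC class I genes, and its matches overlapped those of TTTGAA in 47 windows of the whole RefSeq table. Matches are letters in a window and do not show binding. The 3 promoters printed show where the motifs lie, as the 250 bases before the start, 5′ to 3′ on the gene's strand, with matches in capitals. They were chosen after the values were seen.
Cdc6, loader of the replicative helicase, chr11:98907901-98908150, plus strand, E2F motif in capitals: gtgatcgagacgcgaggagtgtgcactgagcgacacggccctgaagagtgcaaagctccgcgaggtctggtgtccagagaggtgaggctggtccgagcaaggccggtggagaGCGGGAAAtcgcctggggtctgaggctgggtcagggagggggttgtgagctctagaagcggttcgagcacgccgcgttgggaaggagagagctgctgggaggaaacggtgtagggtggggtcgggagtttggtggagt
Mcm5, helicase subunit, chr8:75109259-75109508, plus strand, E2F motif in capitals: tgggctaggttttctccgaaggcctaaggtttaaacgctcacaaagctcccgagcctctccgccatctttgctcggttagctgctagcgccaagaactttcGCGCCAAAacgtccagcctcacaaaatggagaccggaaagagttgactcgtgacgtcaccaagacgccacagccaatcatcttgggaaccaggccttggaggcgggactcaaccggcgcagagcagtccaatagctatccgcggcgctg
Cdk1, the mitotic kinase, chr10:69352913-69353162, minus strand, TTTGAA and CCAAT in capitals: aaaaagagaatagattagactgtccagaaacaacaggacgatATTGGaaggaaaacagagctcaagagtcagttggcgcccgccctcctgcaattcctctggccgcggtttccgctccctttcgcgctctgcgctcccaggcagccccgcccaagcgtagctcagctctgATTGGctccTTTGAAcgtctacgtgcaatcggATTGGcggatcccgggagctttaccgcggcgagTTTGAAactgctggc
Cdc6 rose from 22.4 ± 1.21 to 43.02 ± 1.97 RPKM, Mcm5 from 126 ± 4.79 to 207 ± 7.78 and Cdk1 from 64.3 ± 2.16 to 110.3 ± 5.09. Mcm6, with 2 E2F matches, and Pola1, with 1, differed by only 0.16 and -0.01 on the log2 scale.

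Growth and metabolism genes did not all follow division. Myc fell from 172, 189.8, 195 and 196 to 130.2, 138, 152 and 153 RPKM (-0.39 ± 0.045, limma, adjusted p = 2e-05). Of 35 ribosome biogenesis genes 8 were higher, 6 lower and 21 not called, with a median of -0.0019 (0 higher and 8 lower by library name), and Npm1 did not pass (650.0 ± 42.8 and 659 ± 43.2 RPKM). Ribosomal protein genes were 13 of 32 higher and 0 lower over the 8 libraries, but 2 higher and 3 lower in the control libraries, with a median of 0.078. By library name 0 were higher and 2 lower. Between 5 and 8 were higher without CD25 KO 2 (5), CD25 KO 1 (7), ISP KO 2 (7) or ISP control 2 (8), and voom called 14 higher and 1 lower (0 lower by limma at an unadjusted p under 0.05). Genes of oxidative phosphorylation were higher in 24 of 27 and lower in 0 by limma (19 and 0 in the control libraries, 0 lower at an unadjusted p under 0.05, 0 by voom), by small amounts: the median was 0.32 and the largest rise was that of Sdhb, from 251 ± 9.75 to 464 ± 8.395 RPKM. Grouped by library name, 4 were higher. Glycolysis was mixed (12 of 22 higher and 5 lower, 2 and 3 by library name). Pfkp, a phosphofructokinase, rose from 13.7 ± 1.21 to 52.6 ± 3.62 RPKM and Ldha from 932 ± 71.8 to 1384 ± 84.4, whereas Pkm did not pass (632 ± 50.1 and 629 ± 23.3 RPKM).

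Amino acid supply genes were higher by title, and few of them by library name. Of 21 tested genes of serine and one-carbon metabolism 14 rose and 0 fell over the 8 libraries by limma (9 and 1 in the control libraries; 0 lower at an unadjusted p under 0.05 and 0 by voom over the 8), and 10 of 13 amino acid transporters rose and 1 fell. By library name 1 gene of serine and one-carbon metabolism rose and 1 fell, and 6 transporters rose. Shmt2, the mitochondrial serine hydroxymethyltransferase, went from 119.5 ± 7.11 to 281 ± 17.1 RPKM, Psph from 26.1 ± 2.46 to 62.5 ± 3.73 and Psat1 from 58.02 ± 2.42 to 124 ± 5.31. Asns, asparagine synthetase and a target of ATF4, read 11.7, 12.2, 11.9 and 13.9 RPKM in CD25 and 72.2, 70.8, 79.2 and 56.2 RPKM in ISP (2.39 ± 0.10, limma, adjusted p = 7.8e-09; control libraries 2.48). It led the stress and integrated stress response list, in which 13 of 18 rose and 2 fell (6 and 1 by library name). Atf4 rose from 75.5 ± 5.62 to 102 ± 3.54 RPKM, and Xbp1, the unfolded protein response factor, fell from 266 ± 9.17 to 101 ± 5.32. In the hypoxia list 8 of 14 rose and 2 fell (4 fell without ISP control 1), and Ndrg1 fell from 85.1 ± 4.95 to 19.5 ± 2.704 RPKM.

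Among the BCL2 family of survival and death regulators, 8 of 14 tested members rose and 4 fell (2 fell by library name and with the 2 libraries both titled and named ISP). Bcl2l1 (BCL-XL) read 12.9, 15.9, 13.8 and 13.6 RPKM in CD25 and 61.01, 56.2, 53.9 and 58.4 RPKM in ISP (1.96 ± 0.066, limma, adjusted p = 1.9e-09; control libraries 1.95). Bcl2 went from 12.9, 12.8, 18.4 and 15.99 to 7.33, 8.499, 11.3 and 10.9 RPKM. Both were without overlap, in opposite directions. Genes of death-promoting members were among those that rose: Bax from 93.1 ± 3.81 to 183 ± 14.1 RPKM and Bbc3 (PUMA) from 0.934 ± 0.261 to 4.31 ± 0.669. The death receptor Fas rose from 1.86, 1.15, 2.04 and 1.82 to 16.6, 19.6, 14.9 and 15.01 RPKM. Of 14 p53 target genes 7 rose and 3 fell (1 fell by library name), Fas and Cdkn1a at opposite ends.

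Interferon-stimulated genes were lower nearly throughout. Of 37 tested, 35 fell, 1 rose and 1 was not called, with 35 and 1 in the control libraries, and 25 fell by at least 1 on the log2 scale. Oasl2, of the oligoadenylate synthetase family, read 37.03, 40.1, 56.7 and 49.4 RPKM in CD25 and 2.47, 2.38, 5.86 and 6.59 RPKM in ISP, with no overlap and with both ISP KO libraries above both ISP control libraries (-3.22 ± 0.12, limma, adjusted p = 3.5e-09; control libraries -3.53). Ifit1 went from 23.1, 27.5, 35.1 and 35.2 to 3.82, 4.62, 7.97 and 8.69 RPKM and the ubiquitin-like modifier Isg15 from 125, 143, 174 and 158 to 56.3, 35.8, 91.2 and 85.7. Irf7, a transcription factor of the interferon response, fell from 43.3 ± 11.6 to 18.7 ± 6.15 RPKM. Ifit2 was the gene that rose, from 6.15 ± 0.977 to 7.82 ± 1.07 RPKM, with a difference of 0.62 on the log2 scale in the control libraries and of -0.01 in the KO libraries. That call was lost when any 1 control library was left out (limma, adjusted p between 0.106 and 0.135). Irf1 did not pass (37.9 ± 3.902 and 38.2 ± 0.797 RPKM).

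The interferon-stimulated response element, searched on both strands as GAAA, any 2 bases and GAAA, was in 55.6% of the 27 interferon genes with a promoter window and in 3.9% of the tested genes. Promoters of Ifit1 and Isg15 are printed because they hold 2 and 3 matches, with the same conventions as above, and Isg15's matches overlap one another.
Ifit1, chr19:34640639-34640888, plus strand, matches in capitals: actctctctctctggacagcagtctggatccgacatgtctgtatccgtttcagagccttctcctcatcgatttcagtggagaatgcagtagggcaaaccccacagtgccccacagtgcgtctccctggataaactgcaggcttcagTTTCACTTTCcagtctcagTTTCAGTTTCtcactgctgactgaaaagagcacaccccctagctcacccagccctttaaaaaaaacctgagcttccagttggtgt
Isg15, chr4:156200819-156201068, minus strand, matches in capitals: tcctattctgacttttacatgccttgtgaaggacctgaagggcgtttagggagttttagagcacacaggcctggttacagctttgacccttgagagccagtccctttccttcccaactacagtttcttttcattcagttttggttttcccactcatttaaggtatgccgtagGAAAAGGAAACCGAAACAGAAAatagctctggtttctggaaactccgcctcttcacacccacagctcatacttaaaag

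MHC class I genes moved with them: 13 of 17 tested fell and 1 rose (14 and 1 in the control libraries). B2m, the light chain of class I and the most abundant gene of CD25 libraries, read 2749, 2772, 3356 and 3107 RPKM in CD25 and 1012, 1009, 1229 and 1129 RPKM in ISP. H2-K1 fell from 408 ± 74.1 to 193 ± 34.02 RPKM and H2-D1 from 192 ± 31.9 to 81.5 ± 9.59. H2-T23, a non-classical member, rose from 63.6 ± 10.3 to 80.3 ± 4.32 RPKM. Class I genes are close copies of each other, and their split depends on how the authors counted reads that fit several.

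**Figure D4:**
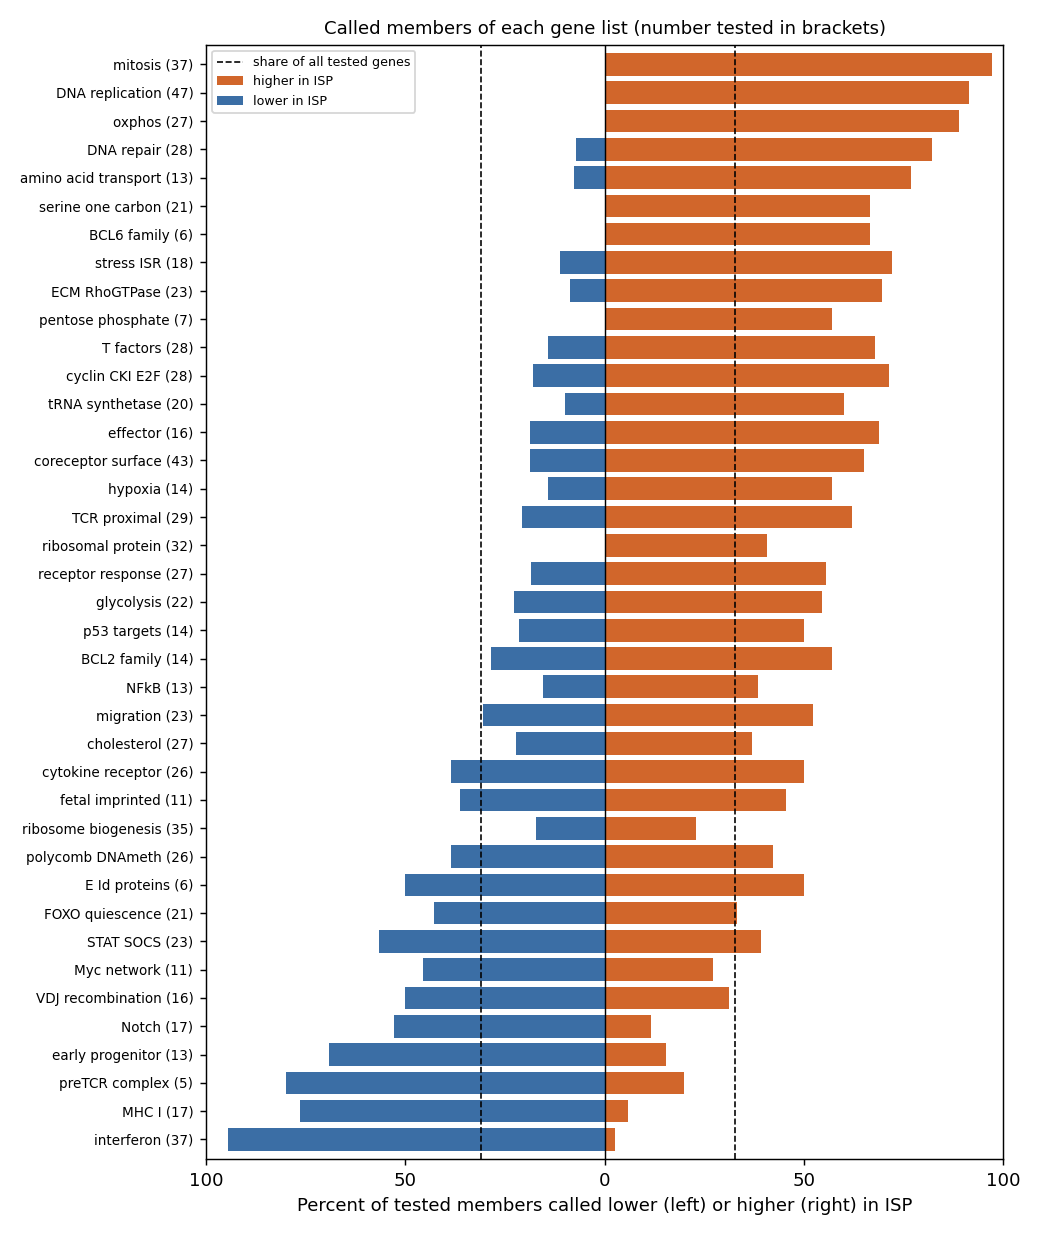
Percent of tested members of each of 39 gene lists called lower (blue, left) or higher (orange, right) in ISP, with the number tested in brackets. Dashed lines mark the shares of all tested genes, 30.9% lower and 32.8% higher. Mitosis and DNA replication stand at the top with 0 members lower, and the interferon list at the bottom with 35 of 37 lower.

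Cytokine receptor genes moved both ways. Apart from Il2ra, 13 of 25 tested rose and 9 fell. With Il2ra counted 10 fell, and by library name 8 rose and 6 fell. Il7r, the receptor early thymocytes depend on, read 28.5, 27.2, 30.1 and 29.98 RPKM in CD25 and 7.27, 9.16, 12.1 and 15.6 RPKM in ISP. Il2rb went from 2.43, 1.69, 2.69 and 1.02 to 14.3, 21.6, 24.2 and 22.6 RPKM, and Il21r rose from 12.3 ± 1.297 to 43.3 ± 3.83. Il4ra rose from 1.81 ± 0.559 to 5.89 ± 1.07 RPKM and Tgfbr1 fell from 62.7 ± 4.43 to 20.3 ± 1.68. In the JAK-STAT and SOCS list 13 of 23 fell and 9 rose (8 fell by library name). Cish and Socs2, both targets of STAT5, fell from 9.98 ± 0.897 to 2.91 ± 0.755 and from 6.89 ± 1.25 to 1.396 ± 0.841 RPKM, and Stat5a fell from 52.9 ± 0.9751 to 32.01 ± 0.728. Pim2 rose from 3.37 ± 0.501 to 10.4 ± 1.34 RPKM.

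Of 23 tested migration genes 12 rose and 7 fell, and by library name 4 rose and 4 fell. Ccr9, the receptor for the thymic chemokine CCL25, read 12.4, 9.44, 11.7 and 12.3 RPKM in CD25 and 82.3, 108, 62.98 and 61.8 RPKM in ISP, higher in ISP control than in ISP KO. The integrin chain Itgb2 rose from 9.02 ± 0.8299 to 61.05 ± 5.01 RPKM and Ccr8 from 1.05 ± 0.249 to 9.905 ± 1.82. Gpr183, an oxysterol receptor that guides lymphocytes, fell from 40.2, 38.5, 31.1 and 33.8 to 2.36, 2.65, 4.48 and 4.91 RPKM. Cxcr4, which acts with the pre-TCR, did not pass (26.3 ± 1.34 and 25.99 ± 2.62 RPKM). Klf2 and its target S1pr1, an exit receptor of mature T cells, rose from 4.34 ± 1.303 to 13.9 ± 1.36 and from 1.64 ± 0.508 to 5.83 ± 0.869 RPKM.

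Effector genes of cytotoxic lymphocytes were mostly higher by title but not by library name. Of 27 listed, 16 were tested. Of these 11 rose and 3 fell (7 and 3 in the control libraries). By library name, a grouping that brings in 2 libraries titled DP, 3 rose and 3 fell. Gzma, a granule protease, was abundant in both populations, at 362, 376, 495 and 449 RPKM in CD25 and 820.1, 938, 850.4 and 910.0 RPKM in ISP. Gzmb rose from 8.17 ± 3.72 to 36.97 ± 14.2 RPKM and the chemokine Ccl5 from 2.06 ± 0.967 to 25.2 ± 11.2. Ifng rose from 0.259 ± 0.148 to 2.86 ± 0.553 RPKM and Tbx21 from 0.408 ± 0.147 to 2.77 ± 0.366. Grouped by library name, Gzma and Gzmb differed from CD25 by -0.25 and -0.20 on the log2 scale and neither passed (limma, adjusted p = 0.76 and 0.88). Markers of NK cells and innate lymphoid cells moved beside them: 6 of 7 tested were higher and 1 lower, and by library name 0 were higher and 1 lower (limma). The summed level of all 8 markers ran from 245 to 305 RPKM in CD25 and from 253 to 379 RPKM in ISP, so the sums overlapped. Ncr1 went from 0.333, 0.176, 0.815 and 0.6100 to 6.497, 9.32, 10.3 and 9.47 RPKM and Klrb1c from 0.0529, 0.09802, 0.139 and 0 to 2.67, 5.799, 5.33 and 5.46, while Eomes stayed at or under 0.509 RPKM in every library and Nkg7 fell from 219 ± 21.4 to 131 ± 21.5. In libraries titled DP, Ncr1 reached at most 0.844 RPKM. Ifng, Tbx21, Ncr1 and Klrb1c were under 1 RPKM in every CD25 library. These genes passed the filter only through ISP, which fixes the direction of their difference. In bulk RNA, more cells of a type and more RNA per cell cannot be told apart, and the part of such cells in these rises was not tested.

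Fetal and imprinted genes held some of the largest falls. H19, an imprinted noncoding RNA (GRCm38 7:142575529-142578143, minus strand), read 461, 608, 489 and 442 RPKM in CD25 and 34.9, 34.7, 33.1 and 31.7 RPKM in ISP (-3.85 ± 0.076, limma, adjusted p = 6.3e-11; control libraries -3.89). Its neighbour Igf2 (7:142650766-142666816, minus strand) fell from 15.1, 12.4, 12.2 and 9.81 to 0.452, 0.223, 0.2698 and 0.161 RPKM. Igf2bp2 fell from 3.58 ± 0.169 to 0.678 ± 0.0308 RPKM, and Lin28b, which marks fetal lymphopoiesis, did not pass (3.18 ± 0.207 and 3.63 ± 0.477 RPKM). Igf2 and Igf2bp2 were under 1 RPKM in every ISP library and passed the filter only through CD25, which fixes the direction of their difference. Of the 11 tested genes of the list 5 rose and 4 fell, with a median of 0.15 (2 rose by library name). The imprinted inhibitor gene Cdkn1c, given above, rose.

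The largest falls outside these lists were in Pld4, Scin, Ifi204 and Mpzl2. Pld4, an endolysosomal nuclease (GRCm38 12:112760655-112768990), read 475, 569.8, 564 and 521 RPKM in CD25 and 15.8, 11.3, 27.5 and 19.3 RPKM in ISP (-4.84 ± 0.16, limma, adjusted p = 1.6e-09). Scin, an actin-severing protein gene (12:40059769-40134228), went from 243, 228, 275 and 286 to 4.17, 6.64, 13.7 and 14.9 RPKM, with ISP control below ISP KO. Ifi204, a DNA sensor gene of the interferon-inducible p200 family, fell from 63.3 ± 4.17 to 1.55 ± 0.798 RPKM, and the adhesion gene Mpzl2 from 219 ± 12.4 to 8.91 ± 2.296. Fbp1, a gluconeogenic enzyme gene, fell from 100.3 ± 14.7 to 3.999 ± 1.66 RPKM, Myl10 from 232 ± 19.5 to 10.8 ± 3.87, Cdh1 (E-cadherin) from 65.6 ± 4.29 to 4.903 ± 1.41 and Rab44 from 50.1 ± 1.62 to 3.48 ± 0.819. Among rises outside the lists, Adgre5 (CD97) went from 3.07 ± 0.319 to 44.7 ± 1.83 RPKM, Syt13 from 2.26 ± 0.527 to 30.3 ± 2.85, Colq from 6.02 ± 0.149 to 64.5 ± 10.3 and Gimap4 from 3.71 ± 0.902 to 45.4 ± 6.46.

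A few genes passed between near silence and clear expression. Under 1 RPKM in every library of one population and over 5 in every library of the other, 6 genes came on and 20 went off. Each passed the filter through a single population, which fixes the direction of its difference. Those that came on were Cd6, Ncr1, Gimap3 (0.305 ± 0.125 to 8.13 ± 3.24 RPKM), Klrc1 (0.511 ± 0.229 to 7.91 ± 2.199), Nab2 and 1 predicted gene. Genes that went off included Fam163b (18.9 ± 3.33 to 0.1100 ± 0.0187 RPKM), the growth factor gene Pdgfa (18.6 ± 4.34 to 0.189 ± 0.0735), the hormone gene Stc1 (16.9 ± 1.75 to 0.693 ± 0.159), the small GTPase gene Rhov (16.2 ± 1.49 to 0.0574 ± 0.0871), the bHLH factor gene Atoh8 (13.05 ± 1.604 to 0.235 ± 0.0832) and Igf2. With limits of 0.5 and 10 RPKM in their place, 0 genes came on and 4 went off.

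Many differences were small. In 5788 of the tested genes (52.5%) the 95% interval of the difference lay within 0.5 of 0 on the log2 scale, and 2318 of these genes were still called higher or lower. Fam216a read 109, 107, 103 and 109 RPKM in CD25 and 107, 108, 109 and 104 RPKM in ISP. The GTPase gene Rac1 read 243 ± 3.66 and 244 ± 8.800 RPKM. The most abundant ISP gene was Actb, which rose from 1923 ± 221 to 3498 ± 115 RPKM, with its partner Pfn1 rising from 1108 ± 106 to 2252 ± 46.2.

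The difference between ISP and CD25 was next computed in control and in KO libraries, which share no library. Across 11028 genes the 2 differences had a correlation of 0.914 (Pearson), given as a description since genes are not independent replicates. The KO libraries called 3094 genes higher (28.1%) and 2958 lower (26.8%). Both genotypes called 4668 genes in the same direction and 11 in opposite directions. The test of the genotype difference itself called 0 of 11028 genes by limma (0%), with 1099 (9.97%) at an unadjusted p under 0.05, and voom on recovered reads called 9. The smallest adjusted p was that of Ly6d (0.089), a marker of early lymphoid cells, which read 193, 225, 265 and 246 RPKM in CD25 and 288, 258, 164 and 143 RPKM in ISP: both ISP control libraries lay above, and both ISP KO libraries below, the matching CD25 libraries. Gpr183 (adjusted p = 0.091, limma) fell by 3.53 in control and by 2.55 in KO on the log2 scale, and Nfkb2 (adjusted p = 0.091, limma) fell by 2.68 and 1.71. Dnmt3b, a DNA methyltransferase gene, read 31.8, 33.4, 37.8 and 36.2 RPKM in CD25 and 6.098, 6.94, 12.9 and 13.7 RPKM in ISP, and Plac8 423, 408, 524 and 480.1 and 162, 191, 350.0 and 375 RPKM. None of these passed the adjusted threshold. Bcl6 itself rose by 2.26 in control and 3.02 in KO, with an unadjusted p of 0.0043 for the difference.

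**Figure D5:**
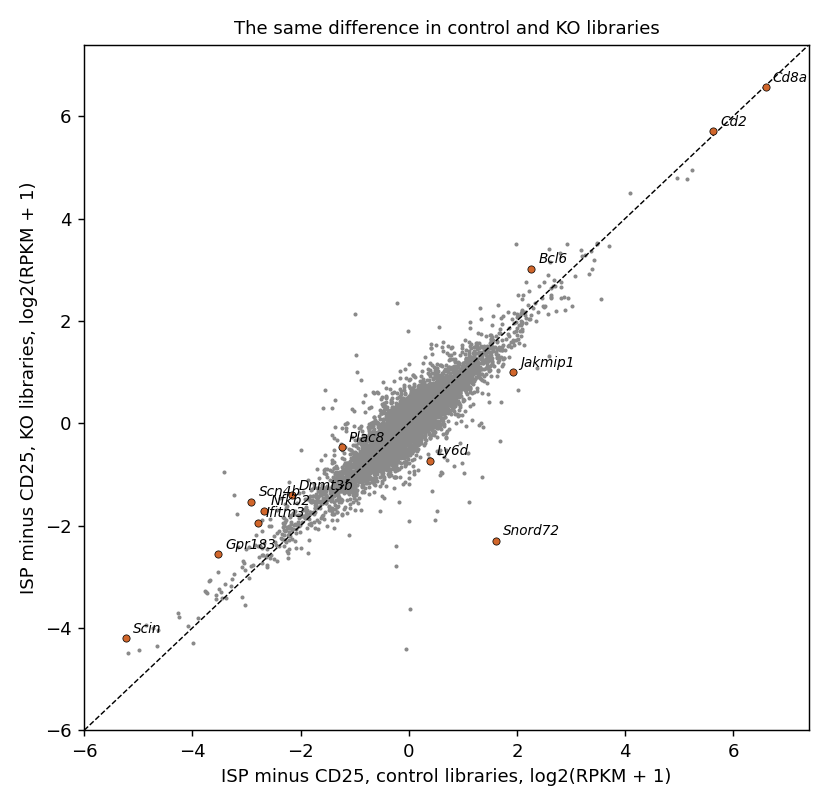
ISP minus CD25 on log2(RPKM + 1) in the KO libraries against the same difference in the control libraries, 1 point for each of 11028 tested genes, with the dashed line of equal differences. Named genes are in orange. Most points follow the line (r = 0.914). Ly6d and Snord72 lie on opposite sides of 0 in the genotypes, and grey points near 0 in control and below -3.6 in KO are the Y-linked genes Ddx3y and Eif2s3y.

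Other features of the libraries moved with these comparisons. Y-linked genes were near 0 in both ISP KO libraries and present in the other 6. Ddx3y read 19.8, 10.8, 7.61 and 18.7 RPKM in CD25 and 7.28, 29.7, 0 and 0.0979 RPKM in ISP. Xist read 16.6, 17.3, 17.5 and 9.79 RPKM in CD25 and 20.5, 0.766, 21.4 and 20.8 RPKM in ISP, low in ISP control 2 alone. By these genes ISP control 1 and ISP control 2 did not hold the same mix of sexes. Of 5 tested sex-linked genes, 4 were called lower over the 8 libraries by limma, all 4 by at least 1 on the log2 scale. In the control libraries 0 were called by limma, and over the 8 libraries voom called 0. The part of sex in these calls and in the genotype difference was not tested. The 14 myeloid markers summed to between 45.9 and 81.1 RPKM in CD25, to 26.2 and 28.5 in ISP control and to 65.4 and 78.7 in ISP KO. The mast cell gene Cpa3 read 23.4, 23.6, 28.9 and 23.8 RPKM in CD25 and 10.01, 12.6, 22.1 and 28.6 RPKM in ISP. All 8 mast cell markers summed to 10.01 and 12.6 RPKM in ISP control and to 24.6 and 30.6 RPKM in ISP KO. The sum lay above the Cpa3 value only in the ISP KO libraries. Mcpt4 was at 0 in 7 of the 8 libraries. Of 8 B lineage markers only Cd79b had a clear level (64.7 ± 2.295 and 24.4 ± 1.87 RPKM), and Ebf1, Ms4a1 and Pax5 were at 0 in all ISP libraries. Epcam fell from 112 ± 5.39 to 15.1 ± 1.39 RPKM while the epithelial genes Krt5 and Foxn1 were at or under 0.0869 RPKM in every library. All 7 thymic epithelium markers summed to between 112.4 and 124.5 RPKM in CD25 and between 19.8 and 22.4 RPKM in ISP. Epcam was therefore not the only one with reads in ISP. Of the 2 tested, the other one differed by 0.18 on the log2 scale and did not pass. The gamma-delta T cell markers in the table, Sox13, Blk, Maf and Zbtb16, summed to between 15.8 and 19.9 RPKM in CD25 and between 4.31 and 7.01 in ISP, and of the 3 tested Sox13 (12.2 ± 1.59 to 2.59 ± 0.443 RPKM) and Blk fell while Maf rose, a call that was lost without CD25 KO 1, ISP control 2 or ISP KO 2. Of 7 mesenchyme markers only Pdgfrb had a clear level, and it fell from 17.1 ± 2.68 to 8.47 ± 1.298 RPKM, with Pdgfra at 0 in all 8 libraries. Globin genes were at 0 in all ISP libraries. The nuclear RNA Malat1 fell from 221, 118, 109 and 159 to 68.03, 78.2, 42.3 and 62.9 RPKM. Whether these features had a part in other results was not tested.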

How the data were processed

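Bulk RNA-seq of 12 libraries was deposited as 1 table of normalised RPKM (reads normalised for gene length and library size), made by the authors with BWA on GRCm38, per the submitters' processing notes. The sources used here do not give the counter, annotation or versions. Since low values step by whole reads, reads were recovered. For each gene the smallest whole length that made all its values whole reads was searched. All 169595 nonzero values (100%) then fell within 0.002 reads of a whole number. That limit was also the rule of the search, so the share is not an independent check. The deposited values share 1 median-of-ratios factor, so a scaling of that kind had been applied.

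Tested genes reached 1 RPKM in 2 or more of the 8 libraries (11028 genes), on log2(RPKM + 1) by limma 3.58.1 and an intensity trend in R 4.3.3, with genotype and population as terms. Control and KO differences and their difference came from a fit of 4 groups, and p-values were adjusted by the Benjamini-Hochberg method over all tested genes. Calls use an adjusted p under 0.05. A fold on this scale is smaller than the fold of RPKM for low genes. Alternatives were another pseudocount, filter, scaling, replicate block, voom on recovered reads, each library left out and grouping by library name. In simulated data with 11028 genes, changes of 0.5 or 1 on the log2 scale were planted in a small part of the genes. All planted changes were recovered over the 8 libraries (100%), and 87% and 100% in the control libraries. The changed genes were all well above the filter, and noise was drawn from the fitted spread without sampling of reads. Recovery in genes near 1 RPKM was therefore not tested.

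Members and gene lists were chosen with earlier results of these data known. By rule, named genes were the largest rises and falls without overlap that the control libraries also called, genes switched on or off, in each list the members with the largest change or highest level and those not called or moving against the rest, the sort and recombination genes, and the most abundant and most level genes. Genes of the genotype difference and others outside this rule were chosen after their values were seen. Positions are from GENCODE on GRCm38 and promoters from RefSeq on GRCm38.p6.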

Additional observations from a re-analysis of the deposited data

Results flagged for a closer look

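In groups of 4 libraries the library farthest from the other 3 was compared with their spread by Dixon's criterion. Of 442 such groups, 30 held a library that stood apart, and chance gives about 5 in 100.

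CD25 KO 1 stood apart most often. It was high in the mast cell list (summed level 28.86 RPKM against 23.44 to 23.8), which is Cpa3 alone (28.86), in Dusp6 (8.726 RPKM), Jun (25.62), Nab2 (0.2494), Nr4a1 (1.075), Mcm6 (374.6) and Ms4a1 (0.0446), and low in Bax (87.42) and Rac1 (237.9). CD25 control 2 was high in Atoh8 (15.45 RPKM) and Mcm5 (133.6) and low in Ets1 (117.1). CD25 control 1 was low in Lef1 (277.4 RPKM), and CD25 KO 2 in Zap70 (5.002) and Xist (9.791).

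Among ISP libraries, KO 2 was high in the receptor-induced genes Nr4a1 (28.25 RPKM against 8.9 to 10.99), Egr2 (3.319 against 0.6941 to 0.9252) and Cd5 (45.66 against 29.96 to 31.56), and in Cdkn1a (9.453) and Klf2 (15.96), and low in Psat1 (115.8) and Rbpj (5.608). ISP control 1 was high in Lat (693 RPKM) and Bbc3 (5.313) and low in Kit (3.08), Klrb1c (2.668) and Tbx21 (2.224). ISP control 2 was low in Xist (0.7657 RPKM), and ISP KO 1 held the only Mcpt4 reads (0.3849).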

How the results depend on the processing

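Scaling alternatives moved the median of all genes by under 0.1 on the log2 scale, and counts of genes higher and lower stayed within 1.5 times under every alternative but one. With the 4 libraries named ISP in place of those titled ISP, 2142 genes were higher and 2207 lower, and the differences of Gzma (-0.2522), Gzmb (-0.1982), Ldha (-0.0543), Mcm6 (-0.4841) and Rag1 (0.3553) changed sign. With the 2 libraries named and titled ISP, 43 replication, 36 mitosis and 24 oxidative phosphorylation genes were higher and 35 interferon genes lower. Counts of changes of at least 1 depended on the pseudocount and model: 890 lower with a pseudocount of 0.1, 190 higher and 245 lower with 5, 652 and 899 by voom. The genotype difference called 6 genes with a pseudocount of 0.1, 7 without a filter, 5 with a filter of 5 RPKM, 9 by voom and 4 without a trend. With limits of 0.5 and 10 RPKM, 0 genes came on and 4 went off. The filter of 5 RPKM, which tests fewer genes, left 3 early progenitor genes lower and 5 effector, 5 BCL2 family and 3 fetal and imprinted genes higher.

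Leaving out 1 library gave 3330 to 3598 genes higher and 3113 to 3376 lower over the 8 libraries, 421 to 444 and 581 to 613 by at least 1, 2391 to 2869 and 2207 to 2635 in the control libraries, and 2415 to 3238 and 2250 to 3009 in the KO libraries. The genotype difference then called 0 to 13 genes, 13 without ISP control 1. Where a group keeps 1 library, that library is assumed to vary like the others. Xist ran from -0.9506 without ISP control 1 to 0.4929 without ISP control 2, and so changed sign. The causes of these changes were not tested.

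Same-numbered libraries did not deviate together across genes (r = -0.024 in control and 0.079 in KO). With so few libraries this cannot show whether same-numbered libraries share embryos or cultures, and the labels do not say. With the replicate block 3521 genes were higher and 3314 lower over the 8 libraries, 2906 and 2629 in the control libraries, 3068 and 2864 in the KO libraries, and 0 differed by genotype. Groups of 2 libraries limit the control-only and genotype tests, and genes near 1 RPKM rest on few reads.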

Other observations

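Some gene families, grouped by symbol, had differences mostly of one direction. Of all tested genes, 29% lay above and 28% below without overlap, and the median difference was 0.0038. The families were chosen after their values were seen, so no test is given. They are not all separate from the lists: Gbp2 and Gbp3 are also in the interferon list. Klrb1c, Klrd1 and Klrk1 are also among the NK and innate lymphoid markers. Of 51 tested replication-dependent histone genes, which dividing cells need to package new DNA, 49 had a higher mean in ISP, with a median difference of 0.98 on the log2 scale, and without overlap between the populations 37 lay above and 1 below. All 8 Gimap genes, GTPases of lymphocytes that lie in a cluster, had a higher mean (median 1.39), and 7 had no overlap. Of 36 genes of the Klr family of NK receptors 10 were tested, and all 10 had a higher mean with no overlap (median 2.05). Some of them, such as Klrb1c and Klrc1, were under 1 RPKM in every CD25 library. Such genes pass the filter only through ISP, which fixes the direction of their difference. All 10 tested Gbp genes, interferon-induced GTPases, were lower without overlap (median -1.66), and all 4 tested Ifitm genes had a lower mean (median -1.35), 2 of them without overlap.

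The sodium channel subunit genes Scn2b and Scn4b were both lower without overlap. Members of the Gimap, Gbp, Klr and histone families are close copies, and how the authors assigned reads shared between copies is not given in the sources used here.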
